A study of Rattus norvegicus with 8 samples.

Results

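The genes described here are 32 rat genes that make cholesterol, turn it into oxysterols, sense sterols or move them through the cell. They were found by gene name on 1-colour Agilent arrays of hippocampal RNA: a probe counted as a member's if the name given to it in the array files was the member's symbol or an older alias, which held for 31 of the 32, all of them tested among 18803 features. Srebf1 had no probe under that name. Y+I rats received yohimbine, which blocks alpha2-adrenoceptors, together with imipramine, a tricyclic drug against depression that slows the clearing of serotonin and noradrenaline from the synapse, for 7 days. Vehicle rats received vehicle for 7 days. Both groups were male Sprague Dawley rats aged 3 months, the labels give 2 h for the time of the measurement, and each group held 4 animals with 1 array each. Rats given either drug alone were not analysed here, so the effects of the drugs cannot be told apart.

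Brain cholesterol is made within the brain, because the blood-brain barrier keeps lipoprotein cholesterol out. The mevalonate enzymes build farnesyl diphosphate from acetyl-CoA, and the enzymes from squalene synthase onward turn it into cholesterol. The transcription factors SREBP-1 and SREBP-2 switch these genes on when membrane sterol is low, after the escort protein Scap has carried them to the Golgi, and the Insig proteins hold them back when sterol is plentiful. Oxysterols such as 24S-, 25- and 27-hydroxycholesterol are made by Cyp46a1, Ch25h and Cyp27a1. They activate the LXR receptors, which raise the efflux transporters Abca1 and Abcg1, and 25-hydroxycholesterol also binds Insig proteins and so lowers synthesis. Ch25h is best known as an enzyme of activated macrophages, and Cyp46a1 as the neuronal enzyme through which the brain sheds cholesterol.

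Promoter sequences of 3 members are printed here as a description, and no expression result rests on them. Ch25h was the member that rose, Hmgcs1 stands for the start of the pathway, and Mvk was the synthesis gene whose values were separated between the groups. Each is the RefSeq window of 300 bases, 250 before and 50 after the annotated start of the gene, read 5′ to 3′ on the strand of the gene.
Ch25h, GRCr8 chr1:241429317-241429616, minus strand: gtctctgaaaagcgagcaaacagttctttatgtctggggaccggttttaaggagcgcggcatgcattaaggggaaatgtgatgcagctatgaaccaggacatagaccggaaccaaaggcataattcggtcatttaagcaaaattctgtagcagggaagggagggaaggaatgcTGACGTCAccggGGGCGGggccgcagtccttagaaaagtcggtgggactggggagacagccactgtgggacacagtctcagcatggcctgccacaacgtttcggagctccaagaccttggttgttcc
Hmgcs1, GRCr8 chr2:53382054-53382353, plus strand: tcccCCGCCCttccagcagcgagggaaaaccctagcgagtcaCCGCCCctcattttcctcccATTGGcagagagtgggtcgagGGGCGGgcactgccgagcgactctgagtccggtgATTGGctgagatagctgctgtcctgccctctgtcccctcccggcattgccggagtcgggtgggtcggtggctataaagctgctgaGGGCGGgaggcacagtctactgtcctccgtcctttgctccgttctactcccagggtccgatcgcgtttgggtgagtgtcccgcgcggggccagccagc
Mvk, GRCr8 chr12:47819454-47819753, minus strand: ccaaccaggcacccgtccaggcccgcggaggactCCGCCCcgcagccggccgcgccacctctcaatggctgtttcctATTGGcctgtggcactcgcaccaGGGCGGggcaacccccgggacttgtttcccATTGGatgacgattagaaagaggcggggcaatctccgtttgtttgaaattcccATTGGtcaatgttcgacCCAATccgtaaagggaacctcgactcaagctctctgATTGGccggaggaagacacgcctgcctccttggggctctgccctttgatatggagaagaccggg
Capitals mark, on either strand, letters searched for: CCAAT (the box of the factor NF-Y), GGGCGG (a GC box of Sp1), TGACGTCA (a cyclic AMP response element) and TCACNCCAC (a sterol regulatory element), none of which overlap one another in these windows. The search also covered an E-box and the elements of AP-1, interferon and glucocorticoid signalling. These further patterns stood in none of the 3 windows printed. The Ch25h window held TGACGTCA, which began at position -77 relative to the start, and GGGCGG at -65, and it held no CCAAT. Hmgcs1 held CCAAT at -188 and -133, and Mvk held it at 5 places. RefSeq windows were matched for 27 of the 32 members, 28 windows in all. CCAAT stood in 12 of 15 windows of synthesis genes (80%), in 3 of 7 of oxysterol and efflux genes (42.9%) and in 37.2% of the 11581 windows of genes tested on the arrays. GGGCGG stood in 86.7% of the synthesis windows, in 57.1% of the oxysterol and efflux windows and in 57.8% of the windows of tested genes. TGACGTCA stood in 1 of the 28 member windows, that of Ch25h (3.57%), and in 2.92% of those of tested genes, while TCACNCCAC was in 0 of the 28 and in 1.1% of those of tested genes. These counts describe letters in a window and not binding.

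Fewer spots were well above background on the arrays of Y+I animals than on those of vehicle animals. Of 58717 noncontrol spots, 64.4% to 74.8% were well above background in Y+I and 76.4% to 79.7% in vehicle. The leading probe of each of the 31 members, its brightest one, was well above background on all 8 arrays, so the values below are measured levels and not bounds. Values are log2 of the background-subtracted signal relative to the array's own 75th percentile, called normalised log2 signal here, and a level is compared only with the same probe on other arrays. All 8 arrays lay on 1 slide, Y+I in one of its rows and vehicle in the second, and the effect of the row cannot be told apart from that of the treatment. The hippocampal neuron markers C1ql2, Wfs1, Fibcd1, Neurod6 and Zbtb20 were well above background on every array, and Prox1 was so on 2 of 4 Y+I arrays and 4 of 4 vehicle arrays.

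Y+I animals had more Ch25h messenger RNA, and no other member passed the test. Of the 31 members 1 rose (3.23%), against 0.739% of all features that rose, and 0 fell, against 1.6% of all features that fell, at an adjusted p under 0.05 in limma with Benjamini-Hochberg adjustment over all 18803 features. In either direction 2.33% of all features passed. With an unadjusted p under 0.05, 1 member was higher and 3 were lower, against 6.46% and 9.16% of all features. The values of the groups did not overlap for 2 members that were higher (Ch25h and Abcg1) and for 2 that were lower (Nr1h3 and Mvk), against 5.04% and 6.65% of all features, or 12.9% of the members in all, which is near the 11.7% of all features. The median log2 fold change of Y+I over vehicle was -0.03 for the 31 members and -0.02 for all features.

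**Figure D1:**
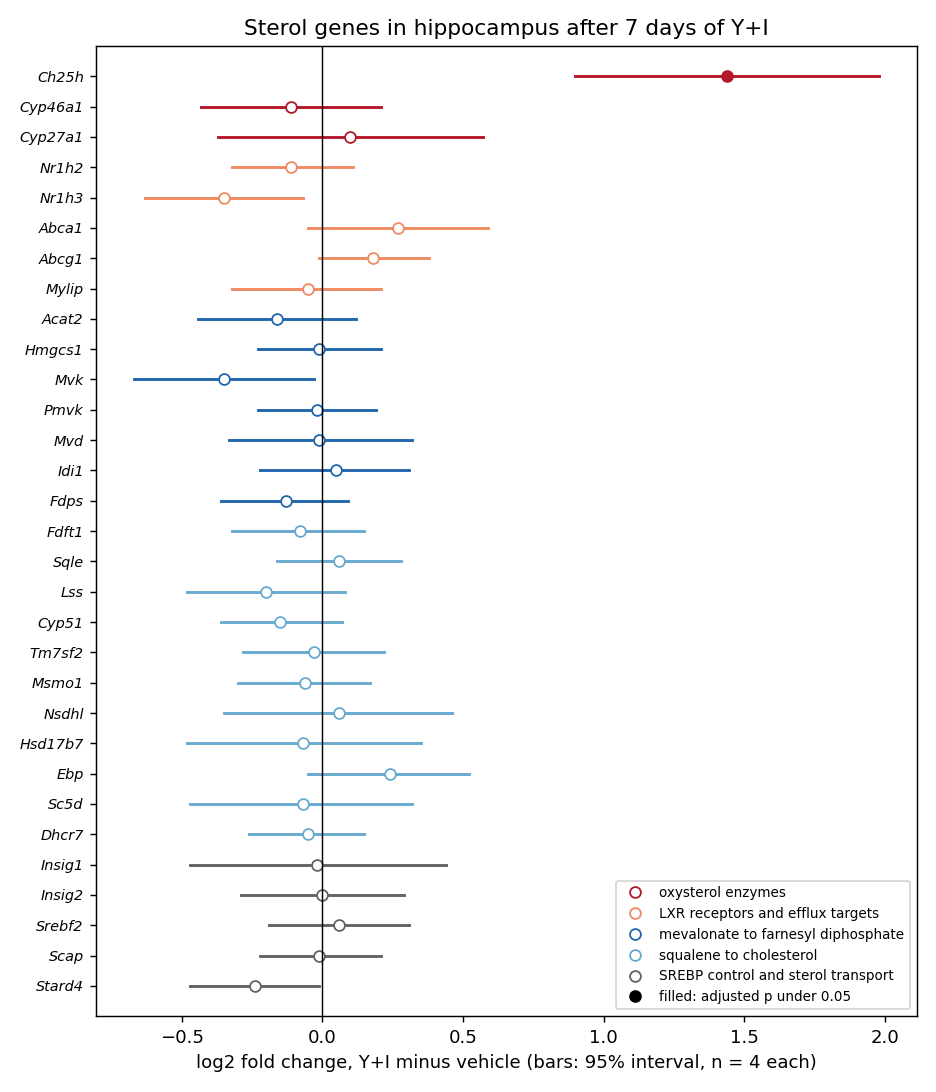
Log2 fold change of each of the 31 sterol genes, Y+I minus vehicle (x axis), with its 95% interval from limma (bars, n = 4 animals per group) and colours for the role of the gene. Ch25h, at 1.44, is the only filled point, which marks an adjusted p under 0.05, and every synthesis gene lies between -0.35 and 0.24.

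Ch25h, cholesterol 25-hydroxylase, had normalised log2 signals of -2.19, -2.57, -3.39 and -2.65 in Y+I animals 1 to 4, against -4.44, -3.94, -4.17 and -4.02 in vehicle animals 1 to 4. All 4 Y+I animals were above all 4 vehicle animals, with Y+I animal 1 highest and Y+I animal 3 nearest to vehicle. The means were -2.70 ± 0.50 in Y+I and -4.14 ± 0.22 in vehicle (SD, n = 4 each). Ch25h thus rose 2.72-fold, a log2 fold change of 1.44 ± 0.24 (SE) with a 95% interval of 0.90 to 1.98 (limma adjusted p = 0.0222). The groups were also separated before scaling, with processed signals of 413.5, 237.8, 187.5 and 166.1 scanner units in Y+I and 93.38, 132.8, 107.7 and 130.7 in vehicle. The probe covers 60 bases at rn4 chr1:238457456-238457515, and its place within the transcript is not stated. In bulk tissue, more RNA per cell and more cells that express a gene cannot be told apart.

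The call on Ch25h was close to the threshold. Leaving out any one vehicle animal, or Y+I animal 2 or 4, gave an adjusted p between 0.0503 and 0.0672 with log2 fold changes of 1.34 to 1.51, while without Y+I animal 3 it was 1.67 with an adjusted p of 0.00748. Under other normalisations, background corrections, filters and variance models the log2 fold change ran from 1.10 with normexp to 1.55 with array weights, and each of these adjusted p-values was under 0.05.

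**Figure D2:**
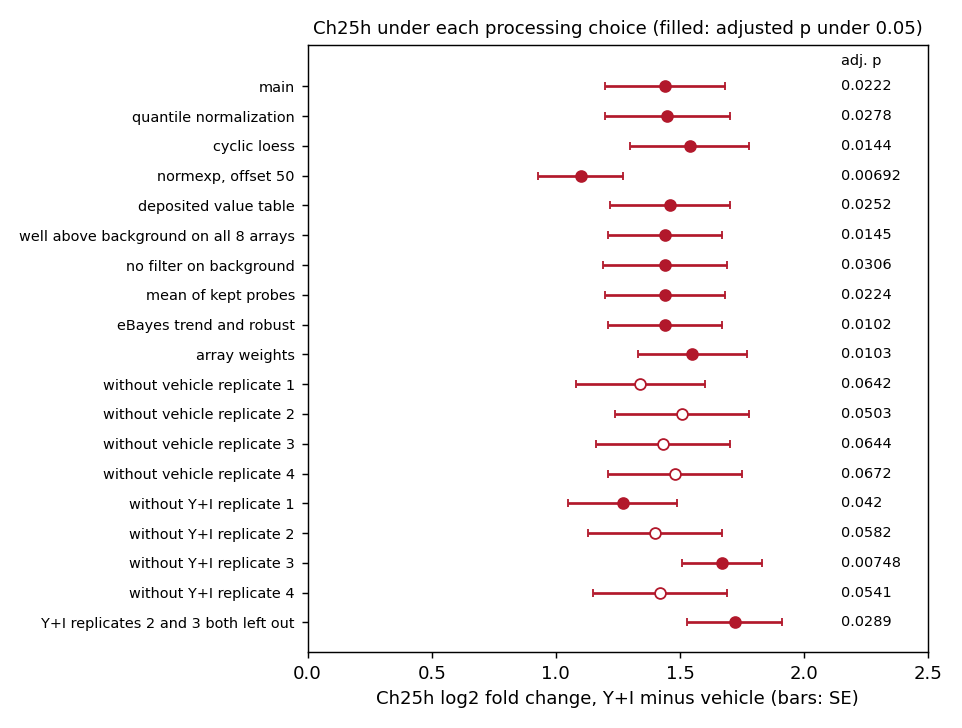
Log2 fold change of Ch25h, Y+I minus vehicle (x axis, bars are SE), under the main processing and 18 of the 19 alternatives, with the adjusted p at the right. The fold change lies between 1.10 and 1.72 throughout. Of the 18 alternatives drawn 12 are filled (adjusted p under 0.05), and the 6 open points each leave out a single animal. The alternative not drawn, a limma fit with a block for the animal number, gave 1.44 with an adjusted p of 0.0672.

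Macrophages are a known source of Ch25h, so the markers of microglia and macrophages were read from the same fit. Of 8 markers 0 passed the test, 3 were above 0 and 5 below, with a median log2 fold change of -0.16. Their summed level, the sum of the linear normalised signals, was 6.59 to 8.97 in Y+I and 7.33 to 8.05 in vehicle, and none was at 0. The 2 with the smallest p were both lower without passing, P2ry12 at -0.46 ± 0.19 (SE, adjusted p = 0.275) and Csf1r at -0.34 ± 0.14 (adjusted p = 0.288). Of 5 tested markers of neutrophils and blood 2 fell, against 1.6% of all features, and the median was -0.14, with a summed level of 6.81 to 10.8 in Y+I and 15.3 to 17.7 in vehicle. Nearly all of that sum is the red cell gene Hbb, with mean normalised log2 signals of 3.01 in Y+I and 4.00 in vehicle. The sum therefore does not describe the myeloid genes of the list. The red cell genes Hbb and Alas2 fell by 0.99 and 0.90 on the log2 scale (adjusted p = 0.017 and 0.0289). Hbb lost its call without vehicle animal 1, 3 or 4 (adjusted p = 0.0538 to 0.0633), and Alas2 lost it without any one of the 8 animals but Y+I animal 4 (0.0562 to 0.0844). The other markers of that list were the myeloid genes S100a9 at 2.08 ± 0.60, S100a8 at 2.18 ± 0.69 and Camp at -0.14 ± 0.33 (adjusted p = 0.129, 0.158 and 0.886), named here after their values were seen. S100a9 and S100a8 were well above background on 3 of 4 Y+I arrays and on 4 of 4 vehicle arrays. Y+I animal 3 lay within the vehicle range for both, at -6.17 and -6.69, and the other Y+I animals lay above that range. The part of blood cells in the Ch25h result was not tested.

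The other oxysterol enzymes did not pass. Cyp46a1, the neuronal cholesterol 24-hydroxylase, read 0.31, -0.28, 0.26 and 0.17 in Y+I and 0.24, 0.29, 0.09 and 0.27 in vehicle. The groups overlapped, with Y+I animal 2 lowest, and the log2 fold change was -0.11 ± 0.14 (SE) with a 95% interval of -0.43 to 0.21. Cyp27a1, the mitochondrial sterol 27-hydroxylase, had 0.10 ± 0.21 with an interval of -0.37 to 0.57. Beside these members, Cyp7b1, the 7-alpha-hydroxylase that inactivates 25- and 27-hydroxycholesterol, read 1.25, 1.69, 1.40 and 1.49 in Y+I and 1.10, 1.16, 1.21 and 1.11 in vehicle. Its groups did not overlap, and its log2 fold change of 0.31 ± 0.11 did not pass (adjusted p = 0.198). Of the 9 tested genes in the list of other oxysterol and bile acid genes 0 passed in either direction, with a median of -0.07. In that list Ptch1, the receptor of hedgehog signalling, which sterols modulate, had -0.74 ± 0.28 (adjusted p = 0.24) and was well above background on 1 Y+I array, with 0.15 under normexp, so its direction is not settled. The same holds for the nuclear receptor Rora, at -0.42 ± 0.26 with 0.30 under normexp, while Smo, the partner of Ptch1, had -0.40 ± 0.32. Gpr183, the receptor for the oxysterol that Ch25h and Cyp7b1 make together, is given here after its values were seen, at 0.07 ± 0.18. It was dim, and was well above background on 3 Y+I and 4 vehicle arrays.

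None of the LXR receptors and efflux targets passed, and their values lay on both sides of 0. Nr1h3, LXR alpha, read -2.66, -2.71, -2.66 and -2.98 in Y+I and -2.16, -2.52, -2.57 and -2.36 in vehicle. All Y+I animals were lower than all vehicle animals, by -0.35 ± 0.13 (SE) with a 95% interval of -0.63 to -0.07, but the adjusted p was 0.209. Nr1h2, LXR beta, had -0.11 ± 0.09. Abcg1, a transporter that passes cholesterol to lipoproteins, read 1.55, 1.41, 1.61 and 1.47 in Y+I and 1.33, 1.30, 1.39 and 1.29 in vehicle. Every Y+I value of Abcg1 was above every vehicle value, by 0.18 ± 0.09 with an interval of -0.01 to 0.38 (adjusted p = 0.358). Abca1, which loads cholesterol onto apolipoproteins, had -3.03, -3.62, -3.16 and -3.10 in Y+I and -3.59, -3.54, -3.47 and -3.38 in vehicle, with Y+I animal 2 at the vehicle level and the other 3 above it. Its log2 fold change was 0.27 ± 0.14 (interval -0.05 to 0.59). Mylip, the ubiquitin ligase that removes lipoprotein receptors, had -0.05 ± 0.12 at its bright probe, and its dim probe was well above background on 1 Y+I and 2 vehicle arrays and was not tested. The 8 oxysterol, receptor and efflux genes had a median of 0.02, with 4 above 0 and 4 below.

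**Figure D3:**
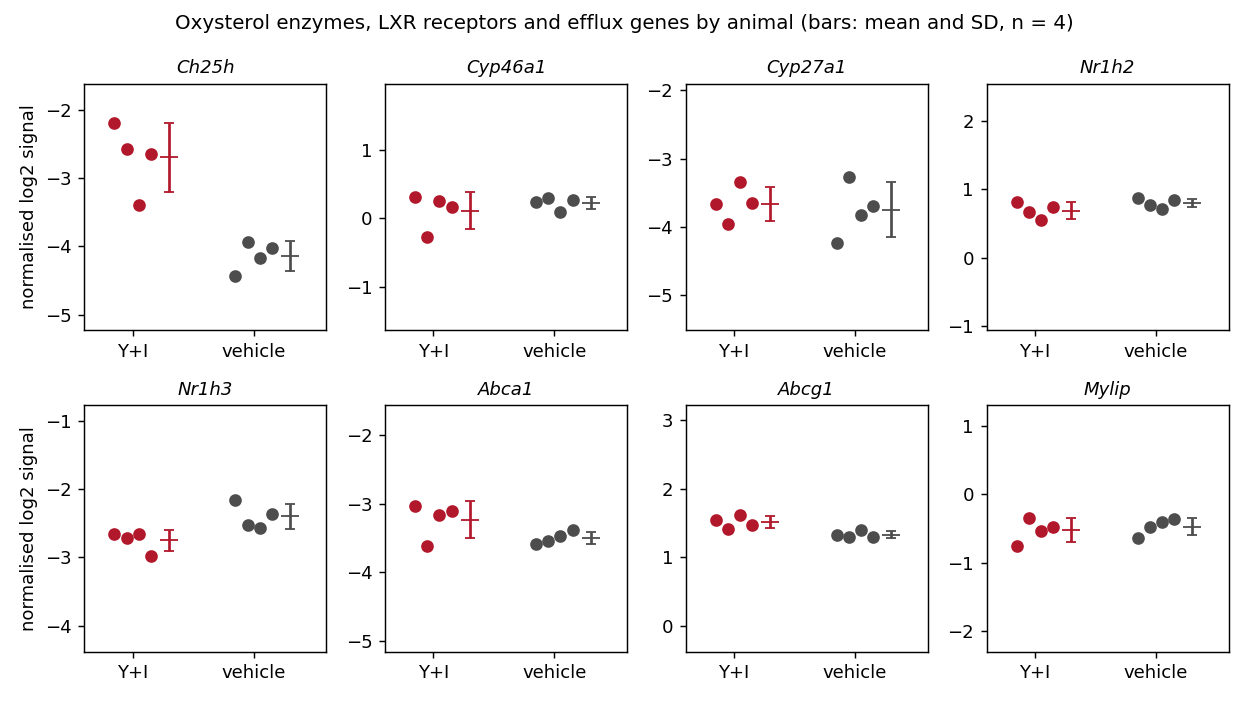
Normalised log2 signal (y axis, each panel spanning the same range) of the 8 oxysterol, LXR receptor and efflux genes in each Y+I animal (left) and vehicle animal (right), with mean and SD. The groups do not overlap for Ch25h, Nr1h3 and Abcg1, and of these only the difference in Ch25h passed the test.

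Other genes that LXR and SREBP-1 are known to drive were read from a list of 20, of which 19 were tested and 0 passed, with a median of -0.05. Scd, a fatty acid desaturase, read -0.09, 0.35, -0.13 and 0.45 in Y+I and -0.47, -0.53, -0.36 and -0.36 in vehicle. Every Y+I animal was above every vehicle animal, by 0.58 ± 0.15 (SE), with an adjusted p of 0.0944. Angptl4, a secreted inhibitor of lipoprotein lipase, was likewise separated, with 0.98, 1.06, 0.42 and 0.59 in Y+I and 0.21, 0.30, 0.24 and -0.19 in vehicle, a difference of 0.63 ± 0.17 (adjusted p = 0.116). Of the rest 3 were above 0 and 14 below, among them Smpdl3a, a phosphodiesterase induced by LXR in macrophages, at 0.27 ± 0.12 (adjusted p = 0.322), and Pltp, the phospholipid transfer protein, at -0.12 ± 0.11.

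None of the 18 synthesis genes passed the test in either direction. Their median log2 fold change was -0.06, with 4 above 0 and 14 below, against -0.02 and 45.9% above 0 for all features. The 95% intervals, which are not adjusted for the number of genes, kept 16 of the 18 within 0.5 log2 units of 0, a change of 1.41-fold, and all 18 within 1 unit. The exceptions to the narrower bound were Mvk and Ebp. The median difference of the 18 genes from their vehicle means was -0.06, 0.01, -0.01 and -0.14 in Y+I animals 1 to 4 and -0.08, 0.00, 0.02 and 0.04 in vehicle animals 1 to 4. Y+I animal 4 was thus the lowest of the 8, and the other 3 lay within the vehicle range.

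In the mevalonate arm the 7 genes had a median of -0.02, with 1 above 0. Hmgcs1, the HMG-CoA synthase at the start of the pathway, read 5.56, 5.74, 5.47 and 5.63 in Y+I and 5.50, 5.58, 5.69 and 5.68 in vehicle. The animals were interleaved, with a log2 fold change of -0.01 ± 0.10 (SE) and an interval of -0.23 to 0.21. Mvk, mevalonate kinase, read -1.30, -1.39, -1.20 and -1.82 in Y+I and -1.18, -1.11, -1.02 and -0.99 in vehicle. Its Y+I values were all below its vehicle values, with animal 4 lowest and animal 3 close to vehicle animal 1, and the difference of -0.35 ± 0.14 did not pass (interval -0.67 to -0.03, adjusted p = 0.267). Its probe has no position in the files. The enzymes that follow, Pmvk, Mvd and Idi1, which phosphorylate mevalonate, form isopentenyl diphosphate and isomerise it, had -0.02 ± 0.09, -0.01 ± 0.14 and 0.05 ± 0.12. Fdps, farnesyl diphosphate synthase, had -0.13 ± 0.10 and -0.07 ± 0.12 at its 2 probes. Acat2, the thiolase that condenses acetyl-CoA, had -0.16 ± 0.12 at its bright probe and -0.48 ± 0.18 at a second one, which was well above background on 2 Y+I and 4 vehicle arrays.

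The 11 genes from squalene to cholesterol had a median of -0.06, with 3 above 0. Sqle, the squalene epoxidase that is a rate-limiting step of this arm, read 2.33, 2.54, 2.53 and 2.36 in Y+I and 2.26, 2.40, 2.49 and 2.39 in vehicle. The groups overlapped, and the log2 fold change was 0.06 ± 0.10 (SE) with an interval of -0.16 to 0.28. Fdft1, squalene synthase, had -0.08 ± 0.10, and Lss, which closes the sterol ring, had -0.20 ± 0.12 with Y+I animals 2 and 4 lowest at -0.98 and -1.17. The lanosterol demethylase Cyp51 had -0.15 ± 0.09 and the sterol reductase Tm7sf2 had -0.03 ± 0.11. Msmo1, Nsdhl and Hsd17b7, which together remove the methyl groups at carbon 4, had -0.06 ± 0.10, 0.06 ± 0.18 and -0.07 ± 0.18. Ebp, the sterol isomerase, read 0.97, 1.36, 0.92 and 0.96 in Y+I and 0.98, 0.82, 0.78 and 0.69 in vehicle. Its highest animal was Y+I 2, vehicle animal 1 lay just above the other 3 Y+I animals, and the difference was 0.24 ± 0.12 (interval -0.05 to 0.52, adjusted p = 0.412). The last enzymes, Sc5d and Dhcr7, had -0.07 ± 0.17 and -0.05 ± 0.09.

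**Figure D4:**
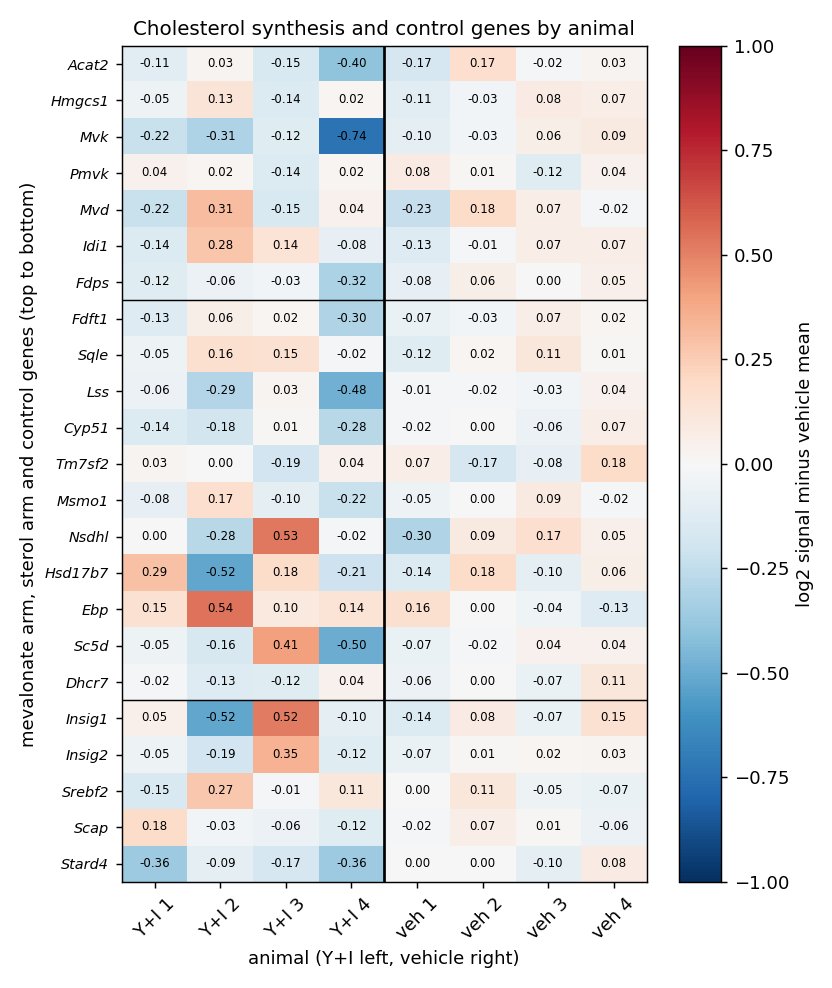
Normalised log2 signal minus the vehicle mean (colour and printed value) of the 18 synthesis genes and 5 SREBP control and transport genes (rows) in each Y+I animal (left) and vehicle animal (right). Both signs occur in every Y+I animal; the lowest cell is Mvk in Y+I animal 4.

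None of the 5 tested genes that control synthesis or carry sterol for it passed the test. Srebf2, which encodes SREBP-2, had a log2 fold change of 0.06 ± 0.11 (SE), and Scap had -0.01 ± 0.10. Insig1 and Insig2, the retention proteins, had -0.02 ± 0.20 and 0.00 ± 0.13. Insig1 varied most between Y+I animals, with -0.35, -0.92, 0.12 and -0.50 in Y+I and -0.54, -0.32, -0.47 and -0.25 in vehicle, so that Y+I animals 2 and 3 lay below and above all others. Stard4, a cytosolic sterol carrier, read -0.80, -0.53, -0.61 and -0.80 in Y+I and -0.44, -0.44, -0.54 and -0.36 in vehicle at its bright probe, a difference of -0.24 ± 0.10 (adjusted p = 0.284). Its second probe differed in the other direction, by 0.43 ± 0.21, so Stard4 has no settled direction. A probe that the files describe as SREBP-1 but do not name Srebf1 read 1.73, 1.38, 1.83 and 1.63 in Y+I and 1.90, 1.67, 1.54 and 1.71 in vehicle, a difference of -0.06 ± 0.13 (adjusted p = 0.863). In the list of genes that process SREBP 6 of 9 were tested, 0 passed and 6 were above 0, against 45.9% of all features above 0, with a median of 0.14. Among them were Ubxn8, an endoplasmic reticulum protein that recruits the degradation factor p97, at 0.35 ± 0.13 (adjusted p = 0.224), Rnf139, a sterol-sensing ubiquitin ligase, at 0.17 ± 0.09 (adjusted p = 0.415), Mbtps1, the first protease to cut SREBP, at 0.14 ± 0.11, and Paqr3, a Golgi protein that anchors Scap, at 0.14 ± 0.14. The groups did not overlap for Ubxn8 and Rnf139, as for 11.7% of all features in either direction.

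Genes that take up, carry or store sterol gave no call among 22 tested of 25 listed, with a median of -0.07, 9 above 0 and 13 below. Gramd1b, which moves cholesterol from the plasma membrane to the endoplasmic reticulum, read -0.11, 0.00, -0.12 and -0.05 in Y+I and -0.45, -0.31, -0.29 and -0.34 in vehicle. The groups were separated with little spread in either, and the difference of 0.28 ± 0.09 (SE) did not pass (adjusted p = 0.152). Osbpl1a, an oxysterol-binding protein of late endosomes, had -0.36 ± 0.14 (adjusted p = 0.265), with every Y+I animal below every vehicle animal. Npc2, the lysosomal cholesterol carrier, had -0.24 ± 0.11 (adjusted p = 0.359), and the lipid transporter Abca7 had -0.21 ± 0.11 (adjusted p = 0.398). In the isoprenoid branch, which draws on farnesyl diphosphate for prenylation and ubiquinone, 15 of 17 were tested and 0 passed, with a median of -0.07. Rabggtb, a subunit of the enzyme that prenylates Rab proteins, had -0.21 ± 0.09 (adjusted p = 0.297), and its groups did not overlap. Pdss2 and Coq2, of ubiquinone synthesis, had -0.17 ± 0.10 and -0.08 ± 0.08, and Fnta, a farnesyltransferase subunit, had -0.16 ± 0.12. For Pdss2 too the groups did not overlap.

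The members varied more between Y+I animals than between vehicle animals. The median SD of the 31 members was 0.179 log2 units in Y+I and 0.0885 in vehicle, and 26 of the 31 (83.9%) had the larger SD in Y+I. Over all features the medians were 0.239 and 0.134, and 77.8% had the larger SD in Y+I, so the members shared a spread found across the array.

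Markers of tissue around the hippocampus were read from the same fit, in which 1.6% of all features fell. Of 5 markers of thalamus and habenula 1 fell, the vesicular glutamate transporter Slc17a6, by 1.17 on the log2 scale (adjusted p = 0.0291), and their summed level was 1.28 to 1.68 in Y+I and 2.04 to 2.81 in vehicle. Slc17a6 is the brightest of the 5, with mean normalised log2 signals of -0.74 in Y+I and 0.44 in vehicle. The sum therefore largely repeats the fall of Slc17a6. The call on Slc17a6 was lost without vehicle animal 1, 2 or 4 or Y+I animal 1, 2 or 3 (adjusted p = 0.0598 to 0.0967). Prkcd had -0.64 ± 0.17 (SE, adjusted p = 0.101), and Tcf7l2, which is named after its values were seen, had 0.09 ± 0.15. Of 6 tested markers of choroid plexus and meninges 3 fell, with Slc6a13 at -1.02 (adjusted p = 0.0105) and Col1a1 at -1.03 (adjusted p = 0.0135), and their summed level was 1.70 to 3.14 in Y+I and 2.55 to 7.22 in vehicle, which overlap. Most of that sum is Igfbp2 and Ttr, named here after their values were seen. Igfbp2 fell by 0.73 (adjusted p = 0.0383), and Ttr had an SD of 1.47 in Y+I and 2.41 in vehicle. The sum therefore does not describe Slc6a13 and Col1a1. Folr1 and Dcn of that list, also named after their values were seen, lay on the other side at 0.88 ± 0.38 and 0.19 ± 0.23 without passing. The 6 hippocampal neuron markers, of which 0 passed, had a summed level of 39.9 to 46.2 in Y+I and 23.7 to 36.4 in vehicle. Most of that sum is the bright probe of Fibcd1, with mean normalised log2 signals of 5.07 in Y+I and 4.50 in vehicle. The groups overlapped for Fibcd1, at 0.57 ± 0.22 (SE, adjusted p = 0.26). Neurod6 at 0.59 ± 0.15 (adjusted p = 0.0964) and Wfs1 at 1.19 ± 0.33 (adjusted p = 0.112) had the smallest p. Of the 6 markers 5 were above 0, and C1ql2 was below at -0.08 ± 0.29. Fibcd1 and C1ql2 are named here after their values were seen. Summed levels overlapped for astrocytes (60.4 to 79.2 in Y+I, 60.6 to 66.7 in vehicle) and for oligodendrocytes (160 to 209 in Y+I, 163 to 179 in vehicle), the glial cells that make most brain sterol. In these lists 0 markers passed, with Aldh1l1 at -0.38 ± 0.14 and Slc1a3 at 0.14 ± 0.12 in astrocytes and Mobp at 0.53 ± 0.18 and Mog at 0.22 ± 0.14 in oligodendrocytes. Mog ran from 0.09 to 0.95 under the 19 alternatives and passed in none of them. The endothelial markers Emcn and Pecam1 had -0.52 ± 0.18 and -0.25 ± 0.10, and the neuronal markers Syt1 and Rbfox3 had 0.19 ± 0.18 and 0.12 ± 0.13, none of which passed. The part of these cell types in the values of the sterol genes was not tested.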

How the data were processed

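Groups and animal numbers came from the sample titles, and replicates are separate animals per the labels. Agilent Feature Extraction 10.5.1.1, per the file headers, made from each image a processed intensity per spot that the authors deposited background-subtracted and unscaled between arrays. The deposited log2 value table, whose scale and centring are not stated, had a slope of 0.9961 to 0.9973 on the log2 scanner values and array medians of -3.508 to -3.349; it served as an alternative.

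Here log2 of the processed intensity minus the 75th percentile of the array was used. Spots flagged as outliers were left out, spots of a probe were averaged, and a probe stayed in where it exceeded background clearly on the 4 arrays of either group (21370 of 30367 probes). Symbols were updated through RefSeq (GRCr8): the accession gave 18004 matches, the symbol 2320 and a synonym 626, while 1999 kept the file's name and 7418 had none. The brightest kept probe stood for a gene, giving 18803 features and 31 members from 35 of 36 member probes. Groups were compared with limma 3.58.1 in R 4.3.3 (lmFit and eBayes, two-sided, Benjamini-Hochberg, threshold 0.05), tested on simulated data. The number of arrays limits the precision, and near-background signals give uncertain folds. Probe positions are the files' (rn4); promoter windows are RefSeq's, searched with Python 3.11.15; figures used matplotlib 3.10.9.

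The text names every member, up to 4 genes of each other pathway list and 2 of each marker list with the smallest p; others are marked as named after their values were seen, except the hippocampal markers given as a tissue check. The members and lists were chosen with earlier results of these data known, so counts over them are descriptions. Lists not detailed in the report gave these medians and counts: 5 general neuron markers 0.08 with 0 called, 7 astrocyte markers 0.06 with 0 called, 6 oligodendrocyte markers 0.12 with 0 called and 6 endothelial markers -0.18 with 0 called. Alternatives covered normalisation, background, filters, probe summary, variance model, array weights, a replicate block and each animal left out.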

Additional observations from a re-analysis of the deposited data

Results flagged for a closer look

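In 10 of 138 sets of 4 animals (7.25%) 1 animal lay far from the other 3, by a gap test that chance alone passes in about 1 of 20 sets. Of these, 8 were Y+I and 2 were vehicle sets. Among the sterol genes, Ebp in Y+I animal 2 read 1.36, with the nearest Y+I animal at 0.97. Nr1h3 in Y+I animal 4 read -2.98, against -2.71 in the nearest. Pmvk in Y+I animal 3 read 1.26, with the nearest at 1.42.

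In the other lists, Y+I animal 2 stood apart for Mbtps1 at 1.63 (nearest 1.96), Pdss2 at -1.37 (nearest -1.06), the endothelial gene Emcn at -4.77 (nearest -4.06) and the myelin gene Mog at 2.98 (nearest 2.56). Slc17a6 in Y+I animal 4 read -0.17 (nearest -0.85), the Y+I value closest to vehicle. Vehicle animal 1 stood apart for Syt1 at -3.09 (nearest -2.67) and Rabggtb at 1.86 (nearest 2.01).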

How the results depend on the processing

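Each of the 31 members was refitted under 19 alternatives. Of these 589 values 582 kept their side of the threshold and 7 lost the call, all of them Ch25h, which kept its direction throughout. The sign of 50 values, of 17 members that did not pass in either fit, differed from that reported (values at 2 decimals). Stard4 went to 0.09 with the mean of its probes, and the other 16 had reported values within 0.11 of 0. The synthesis median ran from -0.10 to -0.02 and the oxysterol and efflux median, on both sides of 0, from -0.07 to 0.11. The count of members changed was 1, and 0 to 1 with each animal left out in turn. The count of features changed was 439 (31.7% higher in Y+I), and 121 to 355 with each animal left out. It was 665 with cyclic loess, 164 without Y+I animals 2 and 3 (Ch25h 1.72, adjusted p = 0.0289) and 3887 with no filter on background (86.5% higher). With normexp 602 features changed, 66.4% of them higher, and the median of all features moved to 0.09; with probes above background on all 8 arrays 372 changed, 43.3% higher. The cause of these shifts was not tested. Animal numbers did not seem to pair the samples: the deviations of animals with the same number correlated at 0.05, -0.11, -0.04 and 0.04, against -0.22 to 0.18 for different numbers. With so few animals these correlations do not settle whether the samples were paired. A replicate block on those numbers gave 144 features and 0 members changed (Ch25h adjusted p = 0.0672). Of 720 values of 38 other named genes 689 kept their side of the threshold, 23 lost a call and 8 gained one. The sign of 2 values differed, both with normexp and without a call: Ptch1 at 0.15 and Rora at 0.30, each well above background on 1 Y+I array. Among the 38, Prkcd gained a call under 4 alternatives (smallest adjusted p = 0.0171), Neurod6 under 2 (0.0454) and Wfs1 under 1 (0.0499). Scd passed with no filter on background (adjusted p = 0.0449), and Slc17a6, Hbb and Alas2 lost their call when single animals were left out. Signal over background limits the dim second probes of Mylip and Acat2.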
